A study of Peromyscus maniculatus with 6 samples.

Results

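The Krüppel-like factors (KLF) are zinc-finger transcription factors, and 8 of 10 listed KLF genes were measured here in primary deer mouse fibroblasts under endoplasmic reticulum (ER) stress. Members were the rows of the deposited count table whose gene name equals a listed symbol, ignoring case. Klf2, Klf3, Klf4, Klf5, Klf6, Klf7, Klf9 and Klf10 were found among 24281 genes, and all 8 passed the filter on low counts. Klf13 and Klf15 are not named in the table and were not analysed here. The animals were 3 deer mice of the BW stock (Peromyscus maniculatus), aged 4 weeks and named BW35770, BW35772 and BW35773, and the cells were grown out of punches taken from the ear. Each animal gave 1 control library and 1 library from cells treated for 5 h with tunicamycin, which blocks N-linked glycosylation and so induces the unfolded protein response. The labelled concentration, 5 mg per mL, could not be checked here, and no vehicle is stated for the controls. No genotype or transgene is named for either group.

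KLF proteins carry 3 zinc fingers at the C-terminal end that bind GC-rich and CACCC-type sequences, while their differing N-terminal parts recruit coactivators or corepressors. Many KLF genes respond within hours to growth factors, hormones, injury or stress, and they are known for setting proliferation, quiescence and differentiation in skin, vessels, gut and connective tissue. The roles named below come from work in laboratory mice and human cells, not in deer mice.

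The libraries held 37852385 to 49352126 counts on genes. The labelled treatment was visible in its usual targets, as Atf4, Ddit3, Trib3, Hspa5 and Dnajb9, 5 of 5, were called higher with tunicamycin. Fibroblast markers (7 of 8 listed were in the table) summed to 12839 to 17446 CPM in controls and 12710 to 15577 CPM with tunicamycin. CPM is a gene's count relative to its library's total, normalised with TMM factors (trimmed mean of M values, a per-library scaling). Cartilage markers (7 of 7 in the table) summed to 1887 to 8480 CPM in controls and 2100 to 9037 CPM with tunicamycin, so genes of that tissue were also abundant in these cultures. The cultures differed in this, BW35770 being the lowest. Col2a1 stood at 742.6, 5999 and 4538 CPM in controls of BW35770, BW35772 and BW35773, and at 842.4, 6260 and 4095 CPM with tunicamycin. Keratinocyte and endothelial cells, in which Klf4, Klf5 and Klf2 are known to be abundant, were hardly represented. Keratinocyte markers (7 of 8 in the table) summed to 4.78 to 23.0 CPM in controls and 2.65 to 13.1 CPM with tunicamycin, with Krt1 and Dsg3 at 0 in every library. Krt14, which made up most of that sum, went from 4.52 to 2.23, from 8.99 to 3.92 and from 22.7 to 12.2 CPM in animals BW35770, BW35772 and BW35773, opposite in direction to Klf4. Its edgeR adjusted p was 0.62, or 0.020 with the animals paired, and DESeq2 and limma-voom called 0 keratinocyte markers. Endothelial markers (6 of 7 in the table) summed to 1.37 to 4.75 CPM in controls and 0.92 to 4.01 CPM with tunicamycin. Most of that was Pecam1, at 4.63, 1.10 and 1.48 CPM in controls of BW35770, BW35772 and BW35773 and 3.32, 0.78 and 0.85 CPM with tunicamycin. Cdh5 was at 0 in every control library and held 3 counts in the treated BW35772 library. Kdr averaged 0.033 CPM in controls and 0.18 CPM with tunicamycin. Immune markers (6 of 7 in the table) summed to 86.6 to 175.6 CPM in controls and 69.1 to 153.5 CPM with tunicamycin. Most of that was Cd68, a lysosomal protein abundant in macrophages, at 127.8 ± 44.8 and 97.1 ± 48.5 CPM (SD, n = 3), while Cd3e was at 0 in every library and Ptprc, which marks all leukocytes, averaged 0.0083 CPM in controls and 0 with tunicamycin. The part of these cells in the results was not tested.

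Klf4 and Klf6 rose with tunicamycin, by 3.21-fold and 1.76-fold, and no KLF gene fell. Of the 8 genes 2 were called higher and 0 lower, 6 not being called (edgeR quasi-likelihood test, Benjamini-Hochberg adjusted p under 0.05 over 13503 tested genes, 3 against 3 libraries). Over all tested genes 1.78% were called higher and 0.792% lower, or 2.58% either way. A fit that pairs the libraries by animal (the replicate block) also called 2 of the 8 higher and 0 lower, where it called 3.07% of all tested genes higher and 2.4% lower. At an unadjusted p under 0.05 there were 5 KLF genes higher and 0 lower, against 8.88% and 6.64% of tested genes. DESeq2 and limma-voom each called 2 KLF genes higher and 0 lower. Over all genes DESeq2 called 5.67% higher and 3.36% lower, among 11928 with an adjusted p, and limma-voom 1.61% and 0.77%. All 8 log2 fold changes were positive, from 0.0082 to 1.68, with a median of 0.44, where the median over all tested genes was -0.01. In 5 of the 8 genes (Klf3, Klf4, Klf6, Klf7 and Klf10) all 3 tunicamycin libraries lay above all 3 controls, which was so for 12.3% of tested genes, and in 0 of 8 all treated libraries lay below, which was so for 9.98%. Those 5 genes were also the ones higher in 3 of 3 animals, as 20.7% of tested genes were. In bulk RNA, a change in the share of cells that express a gene and a change in RNA per cell cannot be told apart.

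Klf4, a factor that restrains proliferation in epithelia and is among the factors that reprogram fibroblasts to pluripotency, showed the largest change of the family (ENSPEMG00000020552, scaffold KI615569.1, bases 1745463 to 1750305, minus strand, 5 exons). Control libraries of BW35770, BW35772 and BW35773 held 23.2, 16.0 and 10.4 CPM, and the matching tunicamycin libraries 65.8, 46.5 and 47.0 CPM. The groups did not overlap, and BW35770 was the highest animal in both. Means went from 16.5 ± 6.38 to 53.1 ± 11.0 CPM (SD, n = 3), and the log2 fold change was 1.68 ± 0.30 (SE, adjusted p = 0.0325 by edgeR) with a 95% interval of 1.00 to 2.37. Among 13503 tested genes this was the rise of rank 91. Within the animals the log2 difference was 1.51, 1.54 and 2.17 in that order. Control levels spanned 2.22-fold between animals and treated levels 1.41-fold, and the animal with the lowest control level, BW35773, had the largest difference.

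Klf6, an early gene of tissue injury that is made in most cell types, was the most abundant member per kilobase of exon and the other gene that rose (ENSPEMG00000008003, scaffold KI615667.1, bases 1563158 to 1571429, plus strand, 4 exons). Its control libraries held 182.6, 191.7 and 199.5 CPM and its tunicamycin libraries 338.8, 284.9 and 387.1 CPM in the same order of animals. Control levels were close together, spanning 1.09-fold, and every treated library lay well above them. Means went from 191.3 ± 8.48 to 336.9 ± 51.1 CPM (SD, n = 3), and the log2 fold change was 0.82 ± 0.14 (SE, adjusted p = 0.0296 by edgeR) with a 95% interval of 0.49 to 1.14. The log2 difference within animals BW35770, BW35772 and BW35773 was 0.89, 0.57 and 0.96.

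Both calls depended on single libraries in fits that did not pair the animals. For Klf4 the edgeR adjusted p was 0.14 or 0.10 when the BW35772 or BW35773 control was left out, and 0.0997 or 0.056 when the treated library of BW35770 or BW35772 was, against 0.033 and 0.044 without the other 2 libraries. For Klf6 it was 0.12, 0.14 or 0.14 with the BW35770, BW35772 or BW35773 control left out and 0.096 with the treated BW35770 library left out, against 0.022 and 0.035 without the others. The paired fit of all 6 libraries gave edgeR adjusted p = 0.0023 for Klf4 and 0.013 for Klf6. With both libraries of an animal removed from that paired fit, Klf4 stayed called in all 3 fits, and Klf6 lost its call without BW35770 (edgeR adjusted p = 0.23). The paired fit of all 6 libraries leaves 2 residual degrees of freedom, and paired fits without an animal leave fewer. P-values of the latter lean on spread estimated over many genes, so a call there says little about stability.

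**Figure D1:**
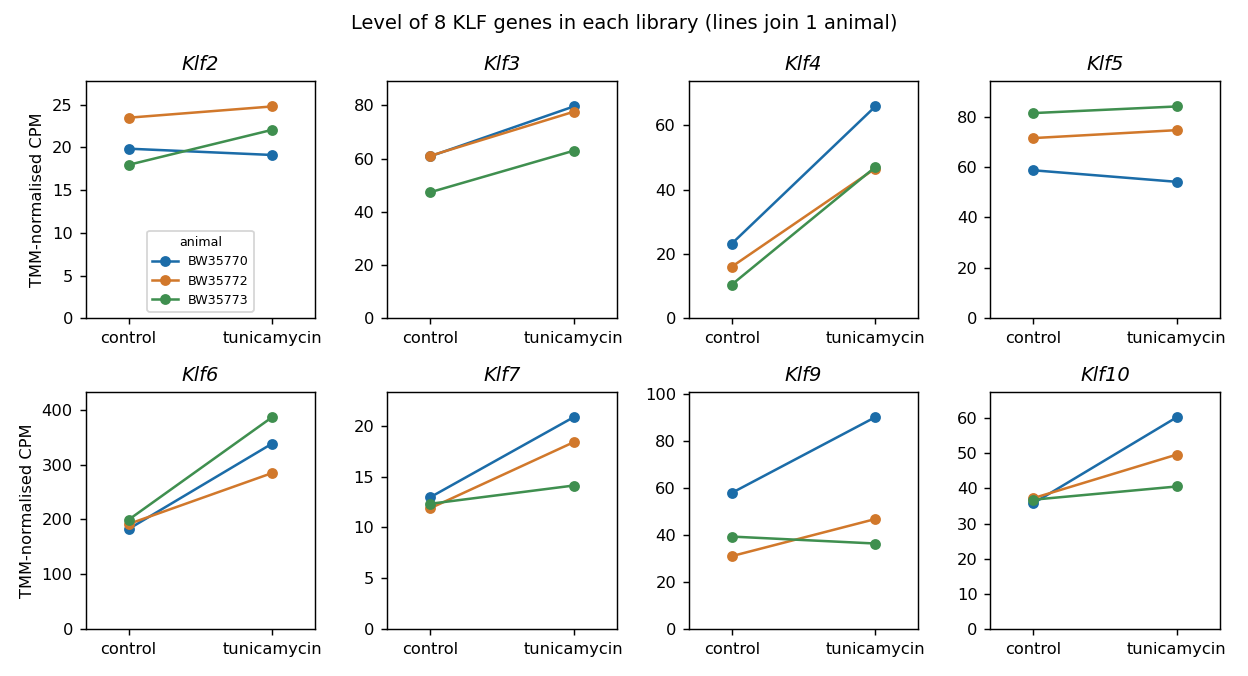
TMM-normalised CPM (y axes, from 0, with a scale of their own in each panel) of the 8 KLF genes in control and tunicamycin libraries, with a point for each library and a line joining the libraries of 1 animal. All 3 lines rise in Klf3, Klf4, Klf6, Klf7 and Klf10, Klf4 going from 10.4 to 23.2 CPM in controls to 46.5 to 65.8 CPM, while Klf2, Klf5 and Klf9 have lines in both directions.

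Klf10, Klf7 and Klf3 had higher values in every treated library and were not called. Klf10, known as the TGF-beta inducible early gene TIEG1, stood at 35.8, 37.2 and 36.8 CPM in controls of BW35770, BW35772 and BW35773 and at 60.3, 49.6 and 40.5 CPM with tunicamycin. Controls differed by 1.04-fold at most, and the treated libraries fanned out above them, with BW35773 nearest to the controls. The log2 fold change was 0.45 ± 0.16 (SE, adjusted p = 0.22 by edgeR) with a 95% interval of 0.08 to 0.83.

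Klf7, known for axon growth and neuronal differentiation, was the least abundant member per kilobase. It stood at 13.0, 11.9 and 12.3 CPM in controls and 20.9, 18.4 and 14.1 CPM with tunicamycin. Its order of treated libraries was that of Klf10, again with BW35773 the lowest. The log2 fold change was 0.52 ± 0.18 (SE, adjusted p = 0.22 by edgeR) with a 95% interval of 0.10 to 0.95. A gene with no name overlaps the Klf7 locus on the same strand and held 4 counts over all libraries.

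Klf3, a repressor that works through the corepressor CtBP, stood at 60.8, 61.0 and 47.3 CPM in controls and 79.6, 77.6 and 63.0 CPM with tunicamycin. The groups lay close together, the highest control being 61.0 CPM and the lowest treated library 63.0 CPM. The log2 difference was nearly the same in each animal, at 0.39, 0.35 and 0.41, and the fitted value was 0.38 ± 0.15 (SE, adjusted p = 0.29 by edgeR) with a 95% interval of 0.03 to 0.73. With the replicate block the edgeR adjusted p was 0.10 for Klf3, 0.13 for Klf7 and 0.15 for Klf10.

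Klf9, which glucocorticoids and thyroid hormone induce, differed more between animals than between treatments. Control libraries of BW35770, BW35772 and BW35773 held 57.8, 30.9 and 39.3 CPM and tunicamycin libraries 90.0, 46.7 and 36.3 CPM. BW35770 was the highest animal in both groups, and the groups overlapped. The log2 difference was 0.64 in BW35770, 0.59 in BW35772 and -0.11 in BW35773, and the fitted log2 fold change was 0.43 ± 0.36 (SE, adjusted p = 0.67 by edgeR) with a 95% interval of -0.41 to 1.28. Without the tunicamycin library of BW35770 it was -0.04.

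The calls of Klf7, Klf9 and Klf10 differed in 1 setting, the paired fit without BW35773, whose few residual degrees of freedom limit it as said above. There all 3 were called higher, with edgeR adjusted p = 0.035, 0.018 and 0.034, log2 fold changes of 0.69, 0.64 and 0.61, and 5 members called in all. In the same fit 806 genes were called higher and 826 lower among all those tested, against 415 and 324 in the paired fit of every animal. In unpaired fits without the treated BW35773 library alone their edgeR adjusted p was 0.055, 0.30 and 0.054, and without its control alone 0.51, 0.85 and 0.50, so none was called. In BW35773 the difference was the smallest of the 3 animals for Klf7, Klf9 and Klf10 and the largest for Klf2, Klf3, Klf4 and Klf6. With 1 pair of libraries per animal, a difference in response between animals was not tested.

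Klf2 and Klf5 had fold changes near 0. Klf2, a factor of quiescence induced by blood flow in endothelium, stood at 19.9, 23.5 and 18.0 CPM in controls and 19.1, 24.8 and 22.1 CPM with tunicamycin, with overlapping groups. Its log2 fold change was 0.11 ± 0.17 (SE, adjusted p = 0.85 by edgeR), and the 95% interval of -0.28 to 0.49 leaves room for a change of that size either way. Klf5, which promotes proliferation in gut crypts and smooth muscle, stood at 58.7, 71.5 and 81.4 CPM in controls and 54.1, 74.6 and 84.0 CPM with tunicamycin. The order of animals was the same in both groups, so that the spread of Klf5 followed the animal. Its log2 fold change was 0.0082 ± 0.19 (SE, adjusted p = 0.99 by edgeR) with a 95% interval of -0.44 to 0.46, and its sign turned under other settings.

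**Figure D2:**
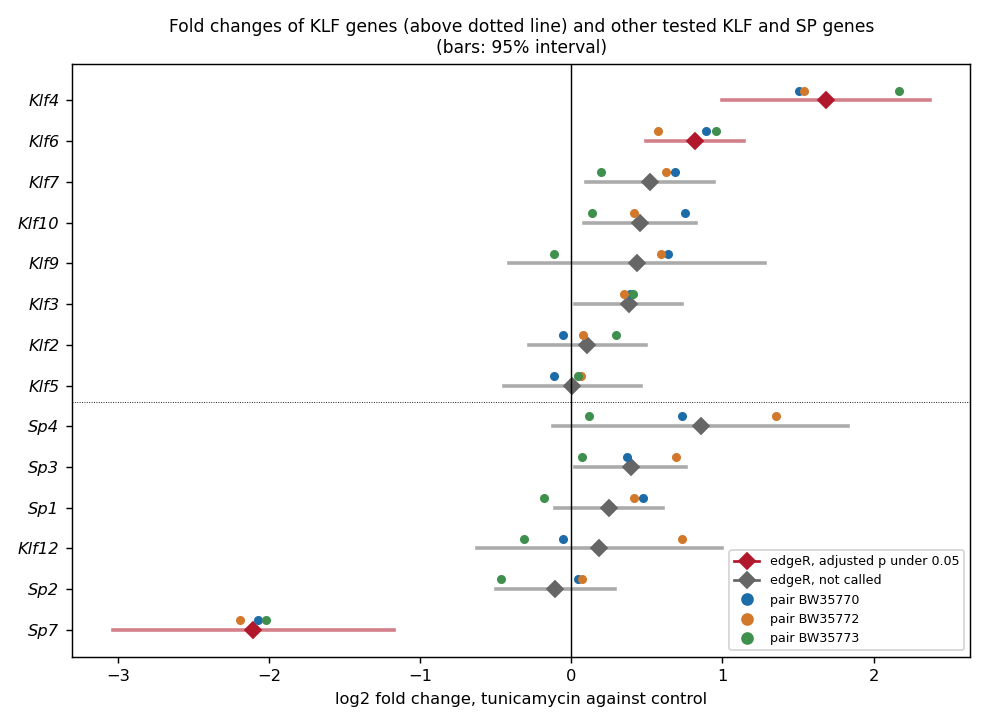
Log2 fold change (x axis, tunicamycin against control) of the 8 KLF genes, above the dotted line, and of the other KLF and SP genes that passed the filter, below it. Diamonds and bars are the edgeR estimate and its 95% interval, red where the adjusted p was under 0.05, and small points are the differences within each animal; Klf4 (1.68), Klf6 (0.82) and Sp7 (-2.10) are the called genes.

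Levels can be compared between genes only per length, so CPM were divided by the kilobases of annotated exon. In controls Klf6 stood at 52.9 ± 2.35 CPM per kilobase (SD, n = 3), followed by Klf5 at 21.4 ± 3.45, Klf2 at 13.2 ± 1.81, Klf10 at 12.2 ± 0.25, Klf3 at 10.7 ± 1.5, Klf9 at 7.91 ± 2.55, Klf4 at 5.79 ± 2.24 and Klf7 at 2.41 ± 0.11. Klf6 lay above and Klf7 below all others in every control library. The steps from Klf2 to Klf10, from Klf10 to Klf3, from Klf3 to Klf9 and from Klf9 to Klf4 were within or near the spread between animals. With tunicamycin Klf6 stood at 93.2 ± 14.1 CPM per kilobase and Klf4 at 18.6 ± 3.86, which moved Klf4 from the seventh to the third place, next to Klf5 at 21.5 ± 4.64. Klf10 then stood at 16.7 ± 3.29, Klf2 at 14.2 ± 1.83, Klf3 at 14.0 ± 1.73, Klf9 at 10.7 ± 5.28 and Klf7 at 3.47 ± 0.66, also on that scale. Neighbours from Klf5 down to Klf9 did not differ beyond their spread.

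Summed over the 8 genes, the per-length level was 125.9, 127.5 and 126.0 CPM per kilobase in controls of BW35770, BW35772 and BW35773 and 201.5, 177.3 and 198.2 with tunicamycin. The 3 control sums were nearly equal, although the animals differed in single members such as Klf4, Klf5 and Klf9. Klf6 made up 41.8 ± 1.86% of the sum in controls and 48.3 ± 5.03% with treatment (SD, n = 3). Klf4 went from 4.58 ± 1.78% to 9.65 ± 1.62%, while Klf5 went from 16.9 ± 2.73% to 11.2 ± 2.69%.

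Ratios between members within a library do not depend on how libraries are scaled. The per-length ratio of Klf4 to Klf5, factors with opposed effects on proliferation in gut epithelium, was 0.46, 0.26 and 0.15 in controls of BW35770, BW35772 and BW35773 and 1.41, 0.72 and 0.65 with tunicamycin. Every treated library was above every control, and in BW35770 Klf4 exceeded Klf5. The log2 ratio differed by 1.62, 1.48 and 2.13 within the animals. The ratio of Klf4 to Klf6 went from 0.11 ± 0.05 to 0.20 ± 0.05 (SD, n = 3), with log2 differences of 0.62, 0.97 and 1.22 within the animals, so the rise of Klf4 was larger than that of Klf6 in all 3.

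**Figure D3:**
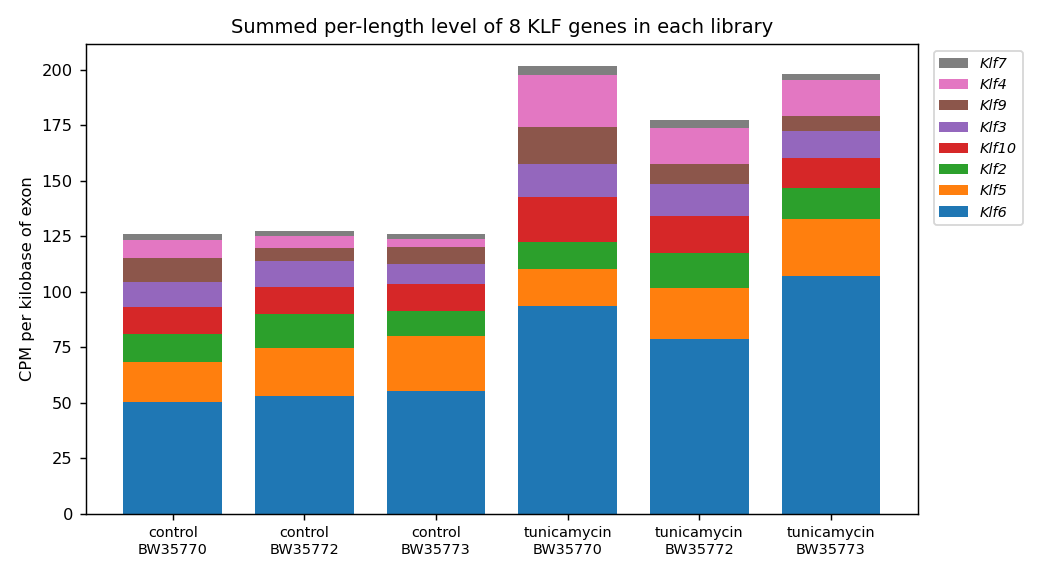
Summed level of the 8 KLF genes in each library, in CPM per kilobase of exon (y axis, from 0), with 1 stacked bar per library and 1 colour per gene. The 3 control bars reach 125.9 to 127.5 and the 3 tunicamycin bars 177.3 to 201.5, with Klf6 the largest block in each.

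The other KLF genes and the related SP genes gave 1 further call. Of 7 other KLF genes listed 5 were in the table and only Klf12, a repressor related to Klf3, passed the filter. It stood at 7.90, 11.0 and 13.4 CPM in controls and 7.61, 18.4 and 10.8 CPM with tunicamycin, with a log2 fold change of 0.19 ± 0.35 (SE, adjusted p = 0.88 by edgeR). Of 9 SP genes, close relatives that bind GC boxes, 5 passed the filter. Of these 0 were called higher and 1 lower, against 1.78% and 0.792% of all tested genes. Sp7, the osteoblast factor osterix, fell from 61.5, 143.8 and 129.6 CPM to 14.6, 31.4 and 31.9 CPM in BW35770, BW35772 and BW35773. The log2 fold change was -2.10 ± 0.40 (SE, adjusted p = 0.0407 by edgeR), lost without any 1 library except the control of BW35770 (edgeR adjusted p from 0.064 to 0.18), and 0.00023 with the replicate block. The called KLF genes (2 of the members) thus rose, while the 1 called SP gene fell. The summed cartilage markers given above, most of them Col2a1 in BW35772 and BW35773, overlapped between the groups, and 0 of 6 tested markers were called. Sox9, a cartilage factor of that list, averaged 285.4 ± 40.5 CPM in controls and 223.5 ± 14.4 CPM with tunicamycin (SD, n = 3). Its log2 fold change was -0.35 ± 0.14 (SE, adjusted p = 0.28 by edgeR, unadjusted 0.036). Sox9 hardly differed in BW35770, going from 238.6 to 237.7 CPM, a log2 difference of -0.0055. In BW35772 and BW35773 it was lower, with log2 differences of -0.56 and -0.47. Treated libraries lay below all controls only by the narrow margin within BW35770. The part of Sox9 in the result for Sp7 was not tested.

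Sp1 and Sp3, which are made in most cell types and occupy the same GC boxes as many KLF proteins, were not called. Sp1 had a log2 fold change of 0.25 ± 0.15 (SE, adjusted p = 0.52 by edgeR), with a value of -0.18 in BW35773 and of 0.47 and 0.42 in BW35770 and BW35772. Sp3 stood at 32.6, 33.7 and 36.1 CPM in controls and 42.1, 54.4 and 37.9 CPM with tunicamycin, groups that did not overlap, with a log2 fold change of 0.39 ± 0.16 (SE, adjusted p = 0.29 by edgeR, and 0.040 in the paired fit without BW35773). Sp4 had 0.86 ± 0.42 at a low level of 1.28 CPM in controls, and Sp2 had -0.11 ± 0.17, neither being called. The other 8 KLF and SP genes in the table, Klf1, Klf8, Klf14, Klf17, Sp5, Sp6, Sp8 and Sp9, held at most 11 counts in any library, and Klf17 held 0 in all.

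KLF proteins act through shared cofactors. Of 9 tested corepressors and acetyltransferases 1 rose and 0 fell, against 1.78% and 0.792% of all tested genes. At an unadjusted p under 0.05 there were 2 higher and 3 lower, against 8.88% and 6.64%. DESeq2 called 2 higher, against 5.67% of all genes. Crebbp, the acetyltransferase CBP, rose from 42.8, 46.7 and 46.3 CPM to 81.1, 103.1 and 72.6 CPM. The groups did not overlap, and the log2 fold change was 0.92 ± 0.15 (SE, adjusted p = 0.0258 by edgeR), with log2 differences of 0.92, 1.14 and 0.65 within the animals. Leaving out the BW35770, BW35772 or BW35773 control ended this call (edgeR adjusted p = 0.11, 0.14 and 0.13), as did leaving out the treated BW35770 library (0.076), and the paired fit gave 0.012. Of 6 tested ubiquitin ligases that act on KLF proteins 0 were called in edgeR, DESeq2 or limma-voom. At an unadjusted p under 0.05, where 8.88% of tested genes were higher, 1 ligase was higher. That was Smurf1, with a log2 fold change of 0.30 ± 0.12 (SE, adjusted p = 0.28 by edgeR).

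Upstream of Klf2 and Klf4, the kinase ERK5 activates MEF2 factors, which induce both genes in endothelium. Of 7 tested genes of this pathway 0 were called in edgeR and limma-voom. At an unadjusted p under 0.05 there were 3 higher, against 8.88% of tested genes, and DESeq2 called 2 higher, against 5.67%. Mef2a had the smallest p, with 91.0, 86.4 and 86.0 CPM in controls and 126.6, 129.2 and 112.1 CPM with tunicamycin, a log2 fold change of 0.48 ± 0.11 (SE, adjusted p = 0.069 by edgeR). The groups did not overlap, and without the treated library of BW35773 Mef2a was called (edgeR adjusted p = 0.032). Leaving out any other single library did not call it (edgeR adjusted p from 0.11 to 0.31). Mef2c went the other way, with a log2 fold change of -0.61 ± 0.26 (SE, adjusted p = 0.32 by edgeR, and 0.075 with the block). It was lower in every animal, by -0.25, -0.84 and -0.59 on the log2 scale, with overlapping groups. Of the 7 genes 5 had a positive log2 fold change.

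Klf9 and Klf15 belong to the early genes of the glucocorticoid receptor. Of 10 listed genes of this response 6 were tested, of which 1 rose and 0 fell, against 1.78% and 0.792% of tested genes. With the replicate block 1 rose and 1 fell, against 3.07% and 2.4%. At an unadjusted p under 0.05 there were 1 higher and 3 lower, against 8.88% and 6.64% of tested genes. Per1, a clock gene that glucocorticoids also induce, rose from 13.5, 19.7 and 15.8 CPM to 34.6, 47.9 and 34.8 CPM, a log2 fold change of 1.26 ± 0.20 (SE, adjusted p = 0.0229 by edgeR). Every treated library was above every control. The call ended when the BW35770, BW35772 or BW35773 control was left out (edgeR adjusted p = 0.092, 0.076 and 0.13) or the treated BW35770 library was (0.056), and the paired fit gave 0.0029. Dusp1, a MAP kinase phosphatase, stood at 300.5, 218.6 and 231.3 CPM in controls and 161.4, 151.0 and 152.5 CPM with tunicamycin, with a log2 fold change of -0.69 ± 0.15 (SE, adjusted p = 0.058 by edgeR, and 0.022 with the block). It was also called lower with upper-quartile scaling, with a stricter filter, with the exon length trend removed and in DESeq2. Sgk1 and Cebpd were also lower in every animal, with all treated libraries below all controls. Their log2 fold changes were -0.48 ± 0.17 and -0.34 ± 0.13 (SE, adjusted p = 0.23 and 0.25 by edgeR). Neither was called with the block (edgeR adjusted p = 0.055 and 0.13). Errfi1 was higher in every animal, with all treated libraries above all controls and a log2 fold change of 0.32 ± 0.15 (SE, adjusted p = 0.34 by edgeR). Treated libraries lay above all controls in 2 of the 6 genes and below in 3, against 12.3% and 9.98% of tested genes. The list thus held values in both directions, 2 of 6 being positive.

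Klf10 is an early gene of TGF-beta signalling, and its product is reported to repress Smad7, an inhibitor of that pathway. Of 8 tested TGF-beta genes 0 were called in edgeR and limma-voom. At an unadjusted p under 0.05 there were 0 higher and 1 lower, against 8.88% and 6.64% of tested genes. DESeq2 and the paired fit each called 1 lower, against 3.36% and 2.4% of all genes. That gene was Smad7, at 37.3, 38.4 and 35.1 CPM in controls and 20.1, 27.4 and 19.6 CPM with tunicamycin. The groups did not overlap, and the log2 fold change was -0.72 ± 0.16 (SE, adjusted p = 0.070 by edgeR, and 0.028 with the block). Without the treated library of BW35772 Smad7 was called (edgeR adjusted p = 0.026). Leaving out any other single library gave 0 called TGF-beta genes.

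Among 14 tested genes reported as direct targets of single KLF proteins, 0 were called in edgeR and limma-voom. DESeq2 and the paired fit each called 2 lower, against 3.36% and 2.4% of all genes. In the paired fit these were Cdkn1a and Thbd. At an unadjusted p under 0.05 there were 1 higher (Bcat2) and 2 lower (Cdkn1a and Ccl5), against 8.88% and 6.64% of tested genes. Ccl5 had a log2 fold change of -0.83 ± 0.22 (SE, adjusted p = 0.11 by edgeR, and 0.064 with the block). All its treated libraries were below all controls. Cdkn1a, the cell cycle inhibitor p21 that KLF4 and KLF6 are known to induce, stood at 1424, 1615 and 1757 CPM in controls and 917.4, 979.0 and 1164 CPM with tunicamycin. All treated libraries were below all controls, opposite in direction to Klf4 and Klf6, and the log2 fold change was -0.65 ± 0.15 (SE, adjusted p = 0.083 by edgeR, and 0.022 with the block). Thbd, the anticoagulant receptor thrombomodulin that KLF2 induces in endothelium, had a log2 fold change of -0.86 ± 0.48 (SE, adjusted p = 0.46 by edgeR, and 0.032 with the block). Its groups overlapped, and its unadjusted edgeR p was 0.11. Control levels of Thbd spanned the animals widely, at 99.97, 37.7 and 43.9 CPM, and without the control or the treated library of BW35770 the log2 fold change was -0.30 or -1.39.

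**Figure D4:**
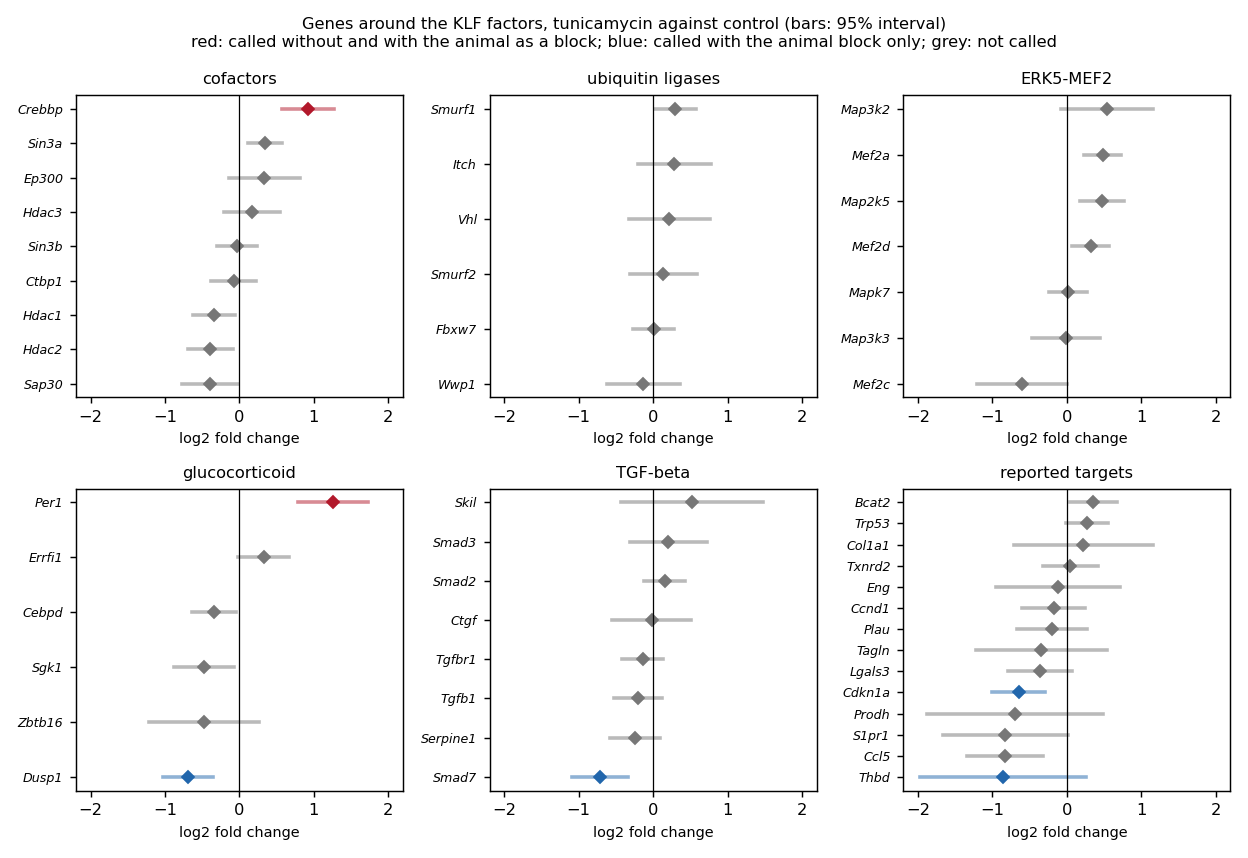
Log2 fold change (x axes, tunicamycin against control) of tested genes in 6 lists around the KLF factors, with the edgeR estimate as a diamond and its 95% interval as a bar. Crebbp (0.92) and Per1 (1.26) are called without and with the animal as a block, and Dusp1, Smad7, Cdkn1a and Thbd, all below 0, are called in the second of these fits only.

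The genes whose pattern was most like that of Klf6, the called member with the smallest p, were sought by Pearson's r of log2 CPM over the 6 libraries among 8900 named genes. They were Trabd (r = 0.997), D6Wsu163e (r = 0.993) and Mrrf (r = 0.991), the last a ribosome recycling factor of mitochondria. The 6 libraries share the split into control and treated, so a gene that is clearly higher in all treated libraries tends to have a high r with Klf6. Trabd rose by 0.89 ± 0.14 on the log2 scale (SE, adjusted p = 0.0229 by edgeR), from 36.4 ± 2.16 to 67.4 ± 10.3 CPM (SD, n = 3). Its log2 differences were 0.95, 0.62 and 1.06 in BW35770, BW35772 and BW35773, the order of animals seen in Klf6. The choice by r over these same libraries favours both, so neither that order nor the rise of Trabd is a separate result. Trabd was not called when the BW35770, BW35772 or BW35773 control was left out (edgeR adjusted p = 0.10, 0.11 and 0.12) or the treated BW35770 library was (0.076), and had 0.013 in the paired fit. In the unpaired fit D6Wsu163e and Mrrf were not called, with log2 fold changes of 0.52 ± 0.13 and 0.53 ± 0.12 (edgeR adjusted p = 0.10 and 0.066). The paired fit did not call them either (edgeR adjusted p = 0.077 and 0.0502). DESeq2 called both (adjusted p = 0.0076 and 0.0011), and Mrrf was also called with library totals and with the exon length trend removed (edgeR adjusted p = 0.039 and 0.033).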

How the data were processed

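The values deposited by the authors are raw read counts of each gene in 6 libraries. Per the submitters' processing notes, reads were aligned with STAR 2.6.1, handled with SAMtools 1.6 and counted with featureCounts (Subread). Multi-mapping reads, the build and the annotation release are not described in the sources at hand. Exon lengths and coordinates are those of the deposited table.

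R 4.3.3 with edgeR 4.0.16 was used. The low-count filter (filterByExpr, minimum count 10, minimum total 15) left 13503 genes, and TMM factors scaled the libraries. The quasi-likelihood test (two-sided) compared 3 tunicamycin with 3 control libraries, with Benjamini-Hochberg adjustment over all tested genes. The SE is the log2 fold change divided by the square root of F. Differences within an animal use log2 CPM with a prior count of 2.

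Libraries of 1 animal are paired by the sample titles, and their deviations from group means correlated at 0.66, 0.41 and 0.22 across genes. The paired fit adds the animal as a term. DESeq2 1.42.0 and limma-voom (limma 3.58.1) were alternatives. The steps were tested on simulated data. No library was a copy of another.

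The members and lists were chosen with earlier results of these data known. Named genes are the members, every tested KLF or SP gene, called genes and the smallest p of each other list, and the 3 genes most like the called member with the smallest p. Genes called only in the paired fit, and some with an unadjusted p under 0.05, were named after their values were seen. Listed genes that the table does not name were not analysed here. P-values of the unpaired fits measure the spread between cultures of 3 animals within each group, with the 6 libraries taken as independent. Those of the paired fits measure how the difference between treatments varied from animal to animal.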

Additional observations from a re-analysis of the deposited data

How the results depend on the processing

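Klf4 and Klf6 were called higher, and 0 KLF genes lower, under all 9 alternatives that kept every library (2 other scalings and library totals, 2 other filters, DESeq2, limma-voom, the replicate block and removal of the trend with exon length). Of the 8 members 6 had a positive log2 fold change in all 18 alternatives, the exceptions being Klf5 and Klf9. Klf5 was at -0.0028 with the replicate block (paired fit), -0.0030 in limma-voom and -0.024 with the exon length trend removed. With libraries or animals left out, the number of members called higher ran from 0 to 5, and log2 fold changes ran from 1.44 to 2.01 for Klf4, 0.73 to 0.94 for Klf6, 0.39 to 0.69 for Klf7, 0.28 to 0.61 for Klf10, -0.039 to 0.72 for Klf9, -0.11 to 0.17 for Klf5, 0.022 to 0.26 for Klf2, 0.27 to 0.50 for Klf3, -0.22 to 0.44 for Klf12, -0.21 to 0.088 for Sp2, 0.12 to 0.47 for Sp1, 0.22 to 0.56 for Sp3, 0.37 to 1.11 for Sp4 and -1.39 to -0.30 for Thbd. The replicate block changed no call of a member, and among the lists of cofactors, pathways and targets it added Dusp1, Smad7, Cdkn1a and Thbd.

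Over all genes 415 were called higher and 324 lower with the block, 676 and 401 in DESeq2, and 200 lower with the length trend removed. With libraries or animals left out these numbers ran from 46 to 806 higher and 15 to 826 lower. Called genes per list were 2 cofactors and 2 ERK5-MEF2 genes in DESeq2; 2 glucocorticoid genes with upper-quartile factors, the stricter filter, the block, DESeq2 or the length trend removed; 1 TGF-beta gene with the block or DESeq2; and 2 reported targets with the block or DESeq2, 1 with the length trend removed. With libraries or animals left out the called genes ran from 0 to 3 for SP, 0 to 4 for cofactors, 0 to 1 for ERK5-MEF2, 0 to 4 for glucocorticoid, 0 to 1 for TGF-beta and 0 to 3 for reported targets. Fewer libraries enter those fits, and beyond that the cause was not tested. The lowest count of a member in any library was 417, and the effect of depth on calls was not tested.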
